A study of Homo sapiens with 12 samples.

Results

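The 37 genes described here encode the enzymes of glycolysis, the carriers of glucose and lactate, the switch that controls pyruvate entry into mitochondria, the enzymes of the malate-aspartate shuttle and the core of the hypoxia-inducible factor (HIF) system. They were chosen by name for these roles, with earlier results of these data known. All 37 were found among the 28278 gene symbols of the count table. The RNA was from cultures of motor neurons made from WA09-Islet1-GFP, an established human embryonic stem cell line that makes GFP where the motor neuron transcription factor Islet1 is expressed. Cultures were kept for 16 hours in cis-chlordane, an organochlorine pesticide, or in DMSO, the vehicle, then lifted with trypsin and sorted on GFP. There were 4 groups of 3 libraries, namely control GFP-positive, treated GFP-positive, control GFP-negative and treated GFP-negative cells. The sample labels give a dose of 10 µM, whereas the methods of the study name another dose. All groups derive from this single reporter line and from stored differentiated cells, and the study counts each independent thaw as a biological replicate.

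Glycolysis splits glucose into pyruvate in the cytosol. Hexokinase traps glucose, phosphofructokinase commits it, and the lower enzymes from aldolase to pyruvate kinase release ATP and NADH. Pyruvate is then reduced to lactate by lactate dehydrogenase, or it enters mitochondria, where pyruvate dehydrogenase feeds it into respiration unless a pyruvate dehydrogenase kinase (PDK) blocks this step. The malate-aspartate shuttle carries the reducing power of cytosolic NADH into mitochondria, and neurons rely on it heavily. When oxygen is low, prolyl hydroxylases of the EGLN family stop marking HIF alpha subunits for degradation, and HIF raises transcription of many glycolytic genes. HIF protein is controlled mostly after translation, so transcripts of its subunits do not measure its activity.

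In treated GFP-positive cells the hexokinase gene HK2 rose 15.5-fold, while ALDOC, TPI1 and PKM of lower glycolysis each fell by more than the 2-fold limit. Around the pathway, GOT1, SLC16A1 and PDK1 rose and PFKFB4, LDHA, PDK2 and GOT2 fell. GFP-negative cells of the same cultures also raised HK2 and GOT1 and lowered ALDOC, TPI1, PKM and LDHA. Among the 37 genes, 5 responded differently in the sort fractions by a direct test, in which 2.19% of all genes passed. They were HK2, PFKFB4, SLC2A3, SLC16A3 and GOT1. With a block for a shared culture, which was assumed from the replicate numbers, SLC2A1 and PGK1 passed as well.

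Libraries held between 23414935 and 38347050 counts, with a median of 31553596. ISL1, which encodes Islet1, lay between 62.4 and 68.6 CPM (a gene's counts divided by the TMM-scaled size of its library and brought to a common total) in control GFP-positive cells and between 2.41 and 2.79 in control GFP-negative cells, so the control sort matches its label. In treated GFP-positive cells ISL1 was at 8.01 to 15.3 CPM, and the summed level of 9 motor neuron markers was 521 to 710 CPM against 1766 to 1968 in the controls. In bulk samples fewer cells of a type and less RNA per cell cannot be told apart. The summed level of 9 progenitor and cycling markers was 2374 to 3186 CPM in treated and 2938 to 3287 CPM in control GFP-positive cells. There 8 pan-neuronal markers summed to 6223 to 7965 CPM after treatment against 12654 to 16024 CPM, and 6 mesenchymal markers to 50.2 to 82.0 against 260 to 326 CPM. In GFP-negative cells the motor neuron markers summed to 117 to 156 CPM after treatment against 334 to 377 CPM. The part of these shifts in the results was not tested. Control GFP-negative replicate 3 stood apart through blood genes. Its 7 blood and endothelial markers summed to 6097 CPM, with HBB at 3515 CPM and the leukocyte gene PTPRC at 28.3 CPM, whereas the other control GFP-negative libraries had HBB at 2.73 and 3.97 CPM and PTPRC at 0. HBB was also at 140, 0.182 and 108 CPM in the treated GFP-negative libraries. Treatment and fraction results that rest on control GFP-negative replicate 3 were therefore recomputed without it, and calls that changed are given. The part of these other cells in the results was not tested.

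Upstream sequences are shown for HK2 and GOT1, which rose in both sort fractions, and for ALDOC and LDHA, which fell in both, because the promoters of such genes are textbook places for HIF and stress response elements. They are from RefSeq (GRCh38.p14), run 5′ to 3′ on the strand of the gene and leave out bases that overlap an annotated exon. Capitals mark the HIF core motifs ACGTG and GCGTG on either strand and, in GOT1, the composite element of ATF4 and C/EBP (TGATGNAA, here on the opposite strand). A HIF core within CACGTG is also an E-box, the motif of MYC and related factors.
HK2 (chr2:74833877-74834126, plus strand): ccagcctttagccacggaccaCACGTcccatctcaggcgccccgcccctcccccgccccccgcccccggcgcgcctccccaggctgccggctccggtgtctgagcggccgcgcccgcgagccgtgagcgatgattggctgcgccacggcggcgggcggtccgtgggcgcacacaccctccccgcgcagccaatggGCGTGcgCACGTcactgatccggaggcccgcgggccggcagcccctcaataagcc
GOT1 (chr10:99430625-99430874, minus strand): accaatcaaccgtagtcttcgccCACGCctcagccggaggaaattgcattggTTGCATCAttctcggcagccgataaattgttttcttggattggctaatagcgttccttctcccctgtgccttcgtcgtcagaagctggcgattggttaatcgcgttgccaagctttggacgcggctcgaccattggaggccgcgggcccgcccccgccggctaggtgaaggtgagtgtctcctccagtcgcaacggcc
LDHA (chr11:18394313-18394559, plus strand): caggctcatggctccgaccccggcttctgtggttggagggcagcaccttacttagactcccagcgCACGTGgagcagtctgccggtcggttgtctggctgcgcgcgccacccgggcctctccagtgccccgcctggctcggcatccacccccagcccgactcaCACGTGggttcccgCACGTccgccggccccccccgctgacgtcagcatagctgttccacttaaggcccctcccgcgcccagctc
ALDOC (chr17:28576949-28577145, minus strand): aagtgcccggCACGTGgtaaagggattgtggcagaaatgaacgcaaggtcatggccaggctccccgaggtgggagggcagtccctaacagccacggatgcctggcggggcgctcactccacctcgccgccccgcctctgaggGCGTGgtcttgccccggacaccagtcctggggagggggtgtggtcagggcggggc

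Motifs were counted in the 250 bases upstream of each RefSeq start. Windows were found for 34 of the 37 genes, 64 windows in all, since several genes have more than 1 start. A HIF core in either form was present in 54.7% of these windows and in 43.2% of all 35116 windows. Genes that rose and genes that fell in treated GFP-positive cells both carried it, in 7 of 12 and in 9 of 20 windows. The ATF4 and C/EBP element was present in 3.14% of all windows and, among the 37 genes, in GOT1 and HK1. A match describes letters in a window and is not evidence that a factor binds there.

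The question of the first comparison was what cis-chlordane did in the motor neurons. A gene passed when its adjusted p from edgeR was under 0.05, and it was called a differentially expressed gene (DEG) when its fold change was also at least 2. Of 36 genes tested in GFP-positive cells, 8 rose, 10 fell and 18 did not pass. The shares are to be read against all 15333 genes tested, of which 50.9% passed, 26.5% as higher and 24.4% as lower. Of the 36, 4 were DEGs that rose and 4 were DEGs that fell, and among all genes 12.8% and 11.2% were such DEGs. The median log2 fold change was -0.06 over the 36 genes and 0.03 over all genes. These shares lie near the background, and the results therefore concern single genes. In GFP-negative cells all 37 genes were tested, of which 8 rose and 7 fell, beside 15.3% and 16.2% of all 15513 genes, of which 31.5% passed. Of these, 5 were DEGs that rose and 2 were DEGs that fell, beside 8.59% and 9.75% of all genes.

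**Figure D1:**
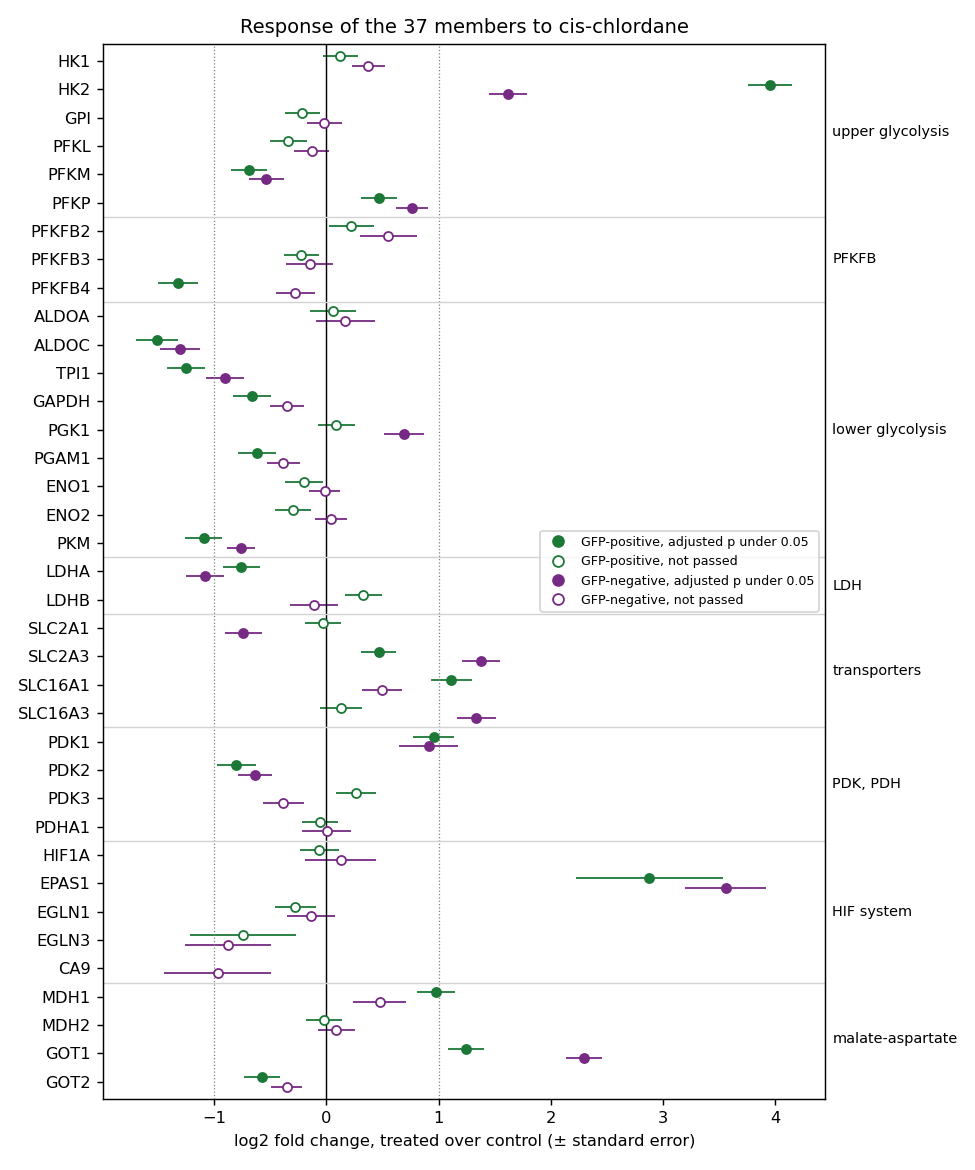
Log2 fold change of each of the 37 genes, treated over control, with its standard error, in GFP-positive (green) and GFP-negative (purple) cells, ordered by role. Filled points passed an adjusted p of 0.05, dotted lines mark a fold change of 2, and a gene without a point was not tested. HK2 and EPAS1 lie farthest to the right in GFP-positive cells, and ALDOC lies farthest to the left.

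Among the 37 genes, HK2 had the largest log2 fold change in GFP-positive cells. HK2 (chromosome 2, 74834127 to 74893359, hg38, plus strand) encodes the inducible hexokinase that can dock on mitochondria. It was at 6.86, 7.30 and 7.998 CPM in control GFP-positive cells and at 121, 85.2 and 122 CPM in treated ones. The groups lay far apart, and the log2 fold change was 3.95 ± 0.20 (SE, n = 3 and 3 libraries, adjusted p = 6.9e-18 from edgeR). In GFP-negative cells HK2 was at 20.2, 22.8 and 18.4 CPM without and at 61.6, 60.1 and 69.6 CPM with the pesticide. This is a log2 fold change of 1.62 ± 0.17 (adjusted p = 1.5e-04 from edgeR), so the fraction that began higher ended lower. The difference between the responses was 2.25 ± 0.24 on the log2 scale (adjusted p = 1.5e-04 from the edgeR interaction test), where 2.19% of 16226 genes passed.

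HK1 encodes the constitutive hexokinase of brain. It was at 415, 473 and 421 CPM in control and at 443, 508 and 408 CPM in treated GFP-positive cells, and these ranges overlapped. In GFP-negative cells it was at 315, 304 and 271 CPM in control and at 378, 419 and 371 CPM in treated cells, without overlap. HK1 did not pass there (0.37, adjusted p = 0.080 from edgeR). It passed there with the GC trend removed (adjusted p = 0.021), with the replicate block and GC removal (0.046) and in the fit of all 12 libraries (0.030). Within a library the ratio of HK2 to HK1 counts was 0.0170 in control and 0.239 in treated GFP-positive cells, and 0.0689 and 0.164 in GFP-negative cells (means of log2 ratios, turned back). HK1 thus remained the more abundant transcript in all groups. HK1 is also the shorter of the transcripts, and per kilobase of transcript the distance between them was larger still.

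Phosphofructokinase, the committed step, is built from muscle (PFKM), liver (PFKL) and platelet (PFKP) subunits. PFKM was at 286, 320 and 283 CPM in control and at 164, 211 and 149 CPM in treated GFP-positive cells. PFKP was at 99.3, 111 and 87.9 CPM in control and at 121, 144 and 129 CPM in treated ones. Neither pair of groups overlapped, and the genes moved in opposite directions, with log2 fold changes of -0.69 ± 0.16 and 0.47 ± 0.16 (adjusted p = 5.2e-04 and 0.014 from edgeR). The call of PFKP in GFP-positive cells was lost without control replicate 3 (adjusted p = 0.075 from edgeR) or treated replicate 2 (adjusted p = 0.085). GFP-negative cells showed the same directions, with -0.54 ± 0.15 for PFKM and 0.76 ± 0.14 for PFKP (adjusted p = 0.024 and 0.0032 from edgeR). There PFKM missed the limit without control replicate 2 (adjusted p = 0.12), treated replicate 1 (0.098) or treated replicate 3 (0.053). The ratio of PFKP to PFKM rose 2.27-fold in GFP-positive and 2.46-fold in GFP-negative cells. PFKL and the isomerase gene GPI did not pass in either fraction, with log2 values of -0.34 and -0.22 in GFP-positive cells. PFKL passed there as lower in the fit of all 12 libraries (adjusted p = 0.040 from edgeR), with a replicate block (0.047) and without control replicate 3 (0.049).

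PFKFB enzymes make and remove the sugar bisphosphate that activates phosphofructokinase. PFKFB4 (chromosome 3, 48517684 to 48562015, hg38, minus strand) was at 64.8, 82.1 and 61.9 CPM in control and at 27.7, 28.1 and 23.9 CPM in treated GFP-positive cells. All treated libraries lay below all controls (log2 fold change -1.32 ± 0.18, adjusted p = 1.2e-07 from edgeR). In GFP-negative cells it was at 30.2, 35.3 and 34.0 CPM in the controls and at 25.9, 25.3 and 32.0 CPM after treatment, ranges that overlapped. The treated libraries of the fractions also overlapped, unlike the controls. The difference between the responses was -1.13 ± 0.23 (adjusted p = 0.020 from the edgeR interaction test). It missed the limit without control GFP-positive replicate 2, treated GFP-positive replicate 1 or 3, or treated GFP-negative replicate 3 (adjusted p = 0.078, 0.092, 0.097 and 0.057). PFKFB2 and PFKFB3 did not pass in either fraction. Without control GFP-negative replicate 3, PFKFB2 passed in GFP-negative cells at a log2 fold change of 0.76 (adjusted p = 0.033 from edgeR, against 0.55 and 0.13 with it).

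**Figure D2:**
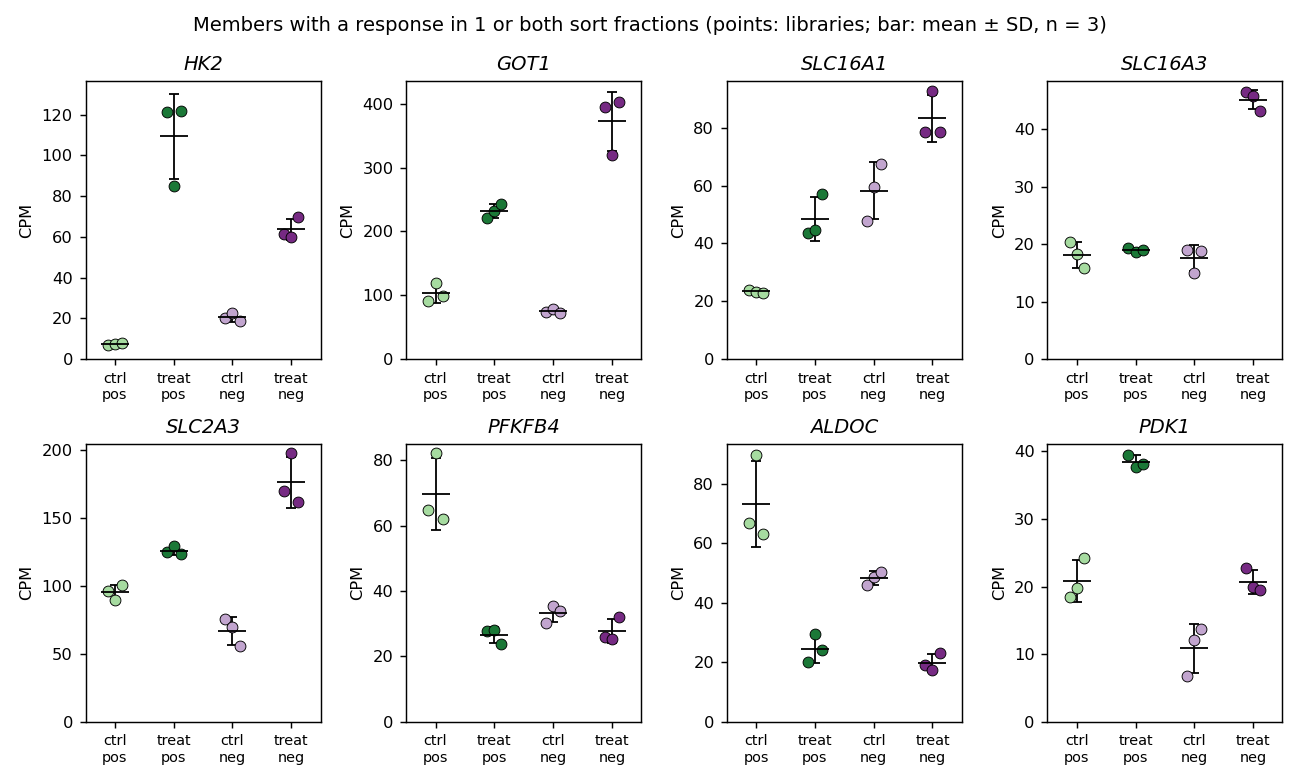
CPM of 8 genes in every library, with points for libraries, a bar for the mean of 3 libraries and whiskers for the SD, in control (ctrl) and treated (treat) GFP-positive (pos) and GFP-negative (neg) cells. HK2 is highest in treated GFP-positive cells, at 85.2 to 122 CPM, while GOT1, SLC2A3 and SLC16A3 are highest in treated GFP-negative cells.

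Lower glycolysis, from aldolase to pyruvate kinase, had 9 genes. In GFP-positive cells 5 of them fell and 4 did not pass, where 24.4% of all genes fell. In GFP-negative cells 3 fell and 1 rose, beside 16.2% and 15.3% of all genes. The median log2 fold change of the 9 genes was -0.62 in GFP-positive and -0.35 in GFP-negative cells, beside 0.03 and -0.01 over all genes. Per kilobase of transcript, GAPDH was the most abundant of all 37 genes in every group, at 2938 CPM per kilobase in control GFP-positive cells, followed there by ENO1 at 637 and PKM at 527.

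ALDOC (chromosome 17, 28573115 to 28576948, hg38, minus strand) encodes the brain form of aldolase, which splits the hexose bisphosphate. It was at 67.0, 89.8 and 63.2 CPM in control and at 20.1, 29.5 and 24.1 CPM in treated GFP-positive cells. The GFP-negative values were 46.0, 48.6 and 50.4 CPM in controls and 19.0, 17.4 and 23.2 CPM after treatment. Both fractions fell without overlap, by 1.51 ± 0.19 and by 1.30 ± 0.18 on the log2 scale (adjusted p = 2.6e-08 and 6.2e-04 from edgeR). ALDOA, the ubiquitous form, lay between 22.1 and 59.8 CPM over all libraries and passed in no comparison. Its RefSeq gene body (chromosome 16, 30064279 to 30070420) lies almost wholly within LOC112694756, another protein-coding gene (30053151 to 30070414). Reads shared by overlapping genes can be left uncounted, so the level of ALDOA and its ratio to ALDOC are uncertain.

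TPI1, the enzyme that interconverts the triose phosphates, was at 529, 744 and 507 CPM in control and at 205, 277 and 230 CPM in treated GFP-positive cells. PKM, which encodes the pyruvate kinase of brain and of dividing cells, was at 1092, 1478 and 1076 CPM in control and at 484, 594 and 550 CPM in treated ones. Control replicate 2 was the highest library for both genes, yet no treated library reached a control. The log2 fold changes were -1.25 ± 0.17 and -1.10 ± 0.16 (adjusted p = 1.7e-07 and 1.0e-06 from edgeR). In GFP-negative cells both fell less far, by 0.90 ± 0.17 and by 0.76 ± 0.12 (adjusted p = 0.0032 and 0.0016 from edgeR), and the responses of the fractions did not differ by the interaction test (adjusted p = 0.41 and 0.30 from edgeR). The counts do not separate the spliced forms of PKM.

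GAPDH, which makes the NADH of glycolysis, and PGAM1, a phosphoglycerate mutase, fell in GFP-positive cells. Their log2 fold changes were -0.66 ± 0.17 and -0.62 ± 0.17 (adjusted p = 0.0013 and 0.0027 from edgeR). In GFP-negative cells their values were -0.35 and -0.38 and did not pass. PGK1, the first ATP-yielding enzyme, showed another pattern. It was at 615, 872 and 734 CPM in control and 656, 717 and 875 CPM in treated GFP-positive cells, with wide overlap. In GFP-negative cells it rose from 633, 750 and 754 to 1073, 970.2 and 1459 CPM, a log2 fold change of 0.69 ± 0.18 (adjusted p = 0.015 from edgeR, and 0.055 without control replicate 2). The interaction of PGK1 passed with a block for the assumed shared culture (-0.67, adjusted p = 0.029 from edgeR, against -0.69 and 0.17 without the block). ENO1 and ENO2 did not pass in either fraction. Read assignment between GAPDH, PGAM1, TPI1, PGK1 or LDHA and their processed copies is not described, so small differences in these genes carry that uncertainty.

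Lactate dehydrogenase is a tetramer of LDHA and LDHB subunits, of which LDHA favours the making of lactate. LDHA (chromosome 11, 18394560 to 18408425, hg38, plus strand) was at 208, 237 and 206 CPM in control and at 96.2, 137 and 134 CPM in treated GFP-positive cells. In GFP-negative cells it was at 357, 304 and 285 CPM and after treatment at 146, 173 and 134 CPM. LDHA fell without overlap in both, by 0.76 ± 0.16 and by 1.08 ± 0.17 on the log2 scale (adjusted p = 2.3e-04 and 0.0012 from edgeR). LDHB did not pass, with 522, 405 and 433 CPM in control and 448, 642 and 538 CPM in treated GFP-positive cells. The ratio of LDHA to LDHB counts was 0.481 in control and 0.225 in treated GFP-positive cells, and 0.554 and 0.274 in GFP-negative cells.

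Carriers at the cell surface set the supply of glucose and the exit of lactate. SLC2A3, the neuronal glucose transporter GLUT3, was at 96.3, 89.8 and 100.4 CPM in control and at 125, 130 and 123 CPM in treated GFP-positive cells. In GFP-negative cells it went from 75.5, 69.6 and 55.4 to 170, 197 and 161 CPM. It rose in both, by 0.46 ± 0.16 and by 1.38 ± 0.17 on the log2 scale (adjusted p = 0.013 and 4.2e-04 from edgeR), and the difference of -1.0003 ± 0.20 passed (adjusted p = 0.019 from the interaction test). Leaving out control GFP-positive replicate 1 or 3, treated GFP-positive replicate 1 or 3, or treated GFP-negative replicate 1 brought that adjusted p to 0.052, 0.050, 0.12, 0.10 and 0.050. Its call in GFP-positive cells was lost when the trend with GC content was removed (0.28, adjusted p = 0.060 from edgeR) or without treated replicate 2 (0.43, adjusted p = 0.052). SLC2A3 has a near copy, SLC2A14, whose counts over all libraries were 662 against 42120.

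SLC2A1, the glucose transporter GLUT1 of the blood-brain barrier and of glia, had the largest difference between the fractions among the genes tested in the controls. It was at 105, 134 and 119 CPM in control GFP-positive and at 507, 566 and 519 CPM in control GFP-negative cells. Treatment left it at 110, 116 and 108 CPM in GFP-positive cells and brought it to 315, 376 and 275 CPM in GFP-negative cells. The fall in GFP-negative cells was 0.74 ± 0.16 on the log2 scale (adjusted p = 0.0074 from edgeR). The interaction of SLC2A1 did not pass (0.62, adjusted p = 0.14 from edgeR). It passed with a block for the assumed shared culture (0.64, adjusted p = 0.036), with DESeq2 (0.68, 0.046), with library size alone (0.88, 0.042) and with the GC trend removed (0.72, 0.045). The ratio of SLC2A1 to SLC2A3 fell from 7.997 to 1.82 in GFP-negative cells, and from 1.25 to 0.887 in GFP-positive cells.

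SLC16A1 and SLC16A3 encode the monocarboxylate transporters MCT1 and MCT4, which move lactate and pyruvate with a proton. SLC16A1 was at 24.0, 23.3 and 23.0 CPM in control and at 43.4, 44.7 and 57.0 CPM in treated GFP-positive cells, with a log2 fold change of 1.11 ± 0.18 (adjusted p = 3.2e-06 from edgeR). In GFP-negative cells its change of 0.50 ± 0.18 just missed the limit (adjusted p = 0.056 from edgeR), and it passed without control replicate 3 (0.61, adjusted p = 0.026). SLC16A3, known as a lactate exporter of glycolytic cells, rose in the GFP-negative fraction instead. It overlaps CSNK1D on the opposite strand, with 147107 counts over all libraries against 8798, so its level depends on how strand was treated in counting. It was at 20.4, 18.3 and 15.8 CPM in control and 19.3, 18.7 and 19.0 CPM in treated GFP-positive cells, against 19.0, 14.97 and 18.8 CPM in control and 46.4, 45.7 and 43.2 CPM in treated GFP-negative cells. The rise in GFP-negative cells was 1.34 ± 0.18 (adjusted p = 5.4e-04 from edgeR), and the difference between the fractions was -1.29 ± 0.22 (adjusted p = 0.0076 from the interaction test). With the GC trend removed, SLC16A3 passed in GFP-positive cells too (0.58, adjusted p = 0.0053 from edgeR, against 0.13 and 0.59).

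The gate of pyruvate into mitochondria is pyruvate dehydrogenase, whose catalytic subunit is encoded by PDHA1 and which PDK enzymes switch off. PDK1, a classic HIF target, was at 18.4, 19.8 and 24.3 CPM in control and at 39.5, 37.7 and 38.2 CPM in treated GFP-positive cells. PDK2, the widely expressed form, was at 56.6, 60.5 and 50.2 CPM in control and at 29.9, 33.4 and 28.0 CPM in treated ones. Every treated GFP-positive library had more PDK1 than PDK2 counts and every control GFP-positive library had fewer. The PDK1 transcript is the longer, and per kilobase PDK2 stayed higher. It was at 9.05 against 2.73 CPM per kilobase in treated and 16.6 against 1.48 in control GFP-positive cells. Their log2 fold changes were 0.95 ± 0.18 and -0.81 ± 0.17 (adjusted p = 4.1e-05 and 2.1e-04 from edgeR). In GFP-negative cells the changes were 0.91 ± 0.26 and -0.64 ± 0.15 (adjusted p = 0.025 and 0.011 from edgeR). There the ratio of PDK1 to PDK2 counts was 0.193 in control and 0.586 in treated cells, and every library had fewer PDK1 counts. The GFP-negative call of PDK1 was lost when any of 4 single libraries was left out, which were control replicate 2 and each treated replicate, with adjusted p between 0.055 and 0.13. PDK2 was lost there without control replicate 2 (adjusted p = 0.065 from edgeR) or treated replicate 1 (adjusted p = 0.063). PDK2 overlaps SAMD14, so its level depends on how shared reads were counted. PDK3 and PDHA1 passed in neither fraction.

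**Figure D3:**
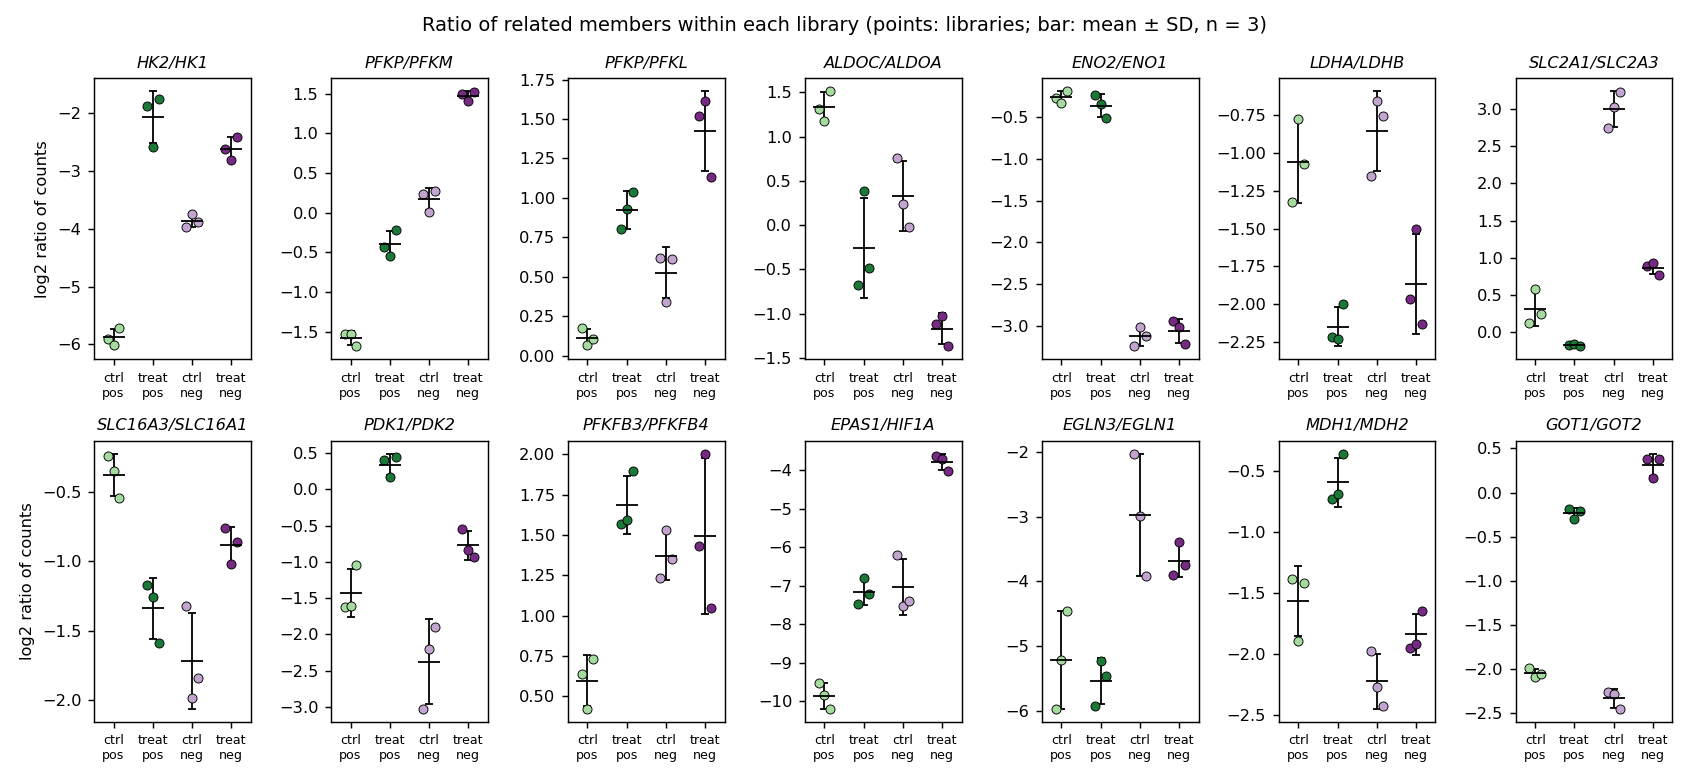
Log2 ratio of the counts of 2 related genes within each library for 14 pairs, with points for libraries and bars for the mean and SD of 3 libraries, in control (ctrl) and treated (treat) GFP-positive (pos) and GFP-negative (neg) cells. HK2/HK1, PFKP/PFKM, PDK1/PDK2 and GOT1/GOT2 are higher in treated than in control libraries of both fractions without overlap, and ALDOC/ALDOA and LDHA/LDHB are lower, while ENO2/ENO1 separates the fractions and not the treatments. Of the other pairs, EGLN3/EGLN1 overlaps between treatments in both fractions and PFKFB3/PFKFB4 in GFP-negative cells, and the rest do not overlap.

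Ratios within a library do not depend on scaling between libraries. Of the 14 pairs, only ENO2/ENO1 and EGLN3/EGLN1 overlapped between the treatment groups in GFP-positive cells. In GFP-negative cells PFKFB3/PFKFB4 overlapped as well. How often other pairs of genes stay apart was not counted, and of all genes 50.9% passed in GFP-positive and 31.5% in GFP-negative cells. The number of pairs without overlap is therefore no result about these pairs as a set. The log2 differences of HK2/HK1, PFKP/PFKM, PDK1/PDK2 and GOT1/GOT2 were 3.82, 1.18, 1.77 and 1.81 in GFP-positive cells. For the same pairs the differences in GFP-negative cells were 1.25, 1.30, 1.60 and 2.65, again without overlap. With 3 against 3 libraries a two-sided exact permutation test cannot give a p under 0.1, which all these differences reached, so none can pass 0.05. After adjustment over the 14 pairs the exact p was 0.117 in GFP-positive and 0.127 in GFP-negative cells.

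Of the HIF subunits, prolyl hydroxylases and CA9, EPAS1 was the single gene of 4 tested in GFP-positive and of 5 tested in GFP-negative cells to pass. Among all genes 50.9% and 31.5% passed. HIF1A, the main oxygen-regulated subunit, was at 69.0, 66.0 and 94.2 CPM in control and at 66.2, 62.1 and 81.0 CPM in treated GFP-positive cells. Control GFP-negative libraries were spread widely, at 27.9, 56.3 and 83.6 CPM. HIF1A did not pass in either fraction, but in GFP-positive cells it did with the GC trend removed (-0.52, adjusted p = 0.0034 from edgeR, against -0.06 and 0.78). EGLN1, the main prolyl hydroxylase, behaved likewise in GFP-positive cells, with -0.28 (adjusted p = 0.20 from edgeR) and, with the GC trend removed, -0.43 (adjusted p = 0.021).

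EPAS1 (chromosome 2, 46293667 to 46386697, hg38, plus strand) encodes the alpha subunit HIF2A, best known from endothelium. It had 2 counts in each control GFP-positive library and 12, 19 and 20 counts in the treated ones. Scaled for library size, this is a ratio of 7.42 with a 95% exact counting interval of 3.19 to 21.2, which covers counting error only. GFP-negative cells had 11, 10 and 12 counts in the controls and 118, 134 and 102 after treatment, a ratio of 12.2 with an interval of 8.51 to 18.0, and of 13.8 (8.87 to 22.5) without control replicate 3. EPAS1 passed in both fractions (log2 fold changes 2.88 ± 0.66 and 3.56 ± 0.36, adjusted p = 4.3e-04 and 1.3e-04 from edgeR) and stayed the far rarer subunit, with 0.00699 and 0.0727 times the counts of HIF1A after treatment. In GFP-positive cells EPAS1 met the count filter only through the treated libraries, where it was high. Its p-value there is therefore no independent support for the rise. The blood and endothelial markers summed to 6.61 to 6097 CPM in control and to 2.33 to 235 CPM in treated GFP-negative cells. Of 6 such markers tested there 0 passed by edgeR, with 1 at an unadjusted p under 0.05, and their part in the EPAS1 result was not tested.

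EGLN3 and CA9 are genes that HIF strongly induces in many cells. EGLN3 had 10, 25 and 40 counts in control and 11, 20 and 17 counts in treated GFP-positive cells, with overlap. In GFP-negative cells EGLN3 had 103, 85 and 37 counts in controls and 25, 44 and 39 after treatment. It did not pass (-0.88, adjusted p = 0.11 from edgeR), and it passed in the direction of lower values without control replicate 3 (-1.13, adjusted p = 0.026). CA9, a carbonic anhydrase of the cell surface, had 2, 9 and 4 counts in control and 3, 2 and 3 counts in treated GFP-positive cells, too few to be tested. In GFP-negative cells it had 16, 19 and 10 counts before and 7, 7 and 6 after treatment (-0.97, adjusted p = 0.15 from edgeR). The estimates of EGLN3 in both fractions and of CA9 in GFP-negative cells lay below 0, but none of them passed in the main fit. In GFP-negative cells CA9 met the count filter only through the control libraries, where it was high. The sign of its estimate is therefore no independent support for a fall.

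Of 4 enzymes of the malate-aspartate shuttle, GOT1 and MDH1 rose and GOT2 fell in GFP-positive cells, and GOT1 alone passed in GFP-negative cells. Among all genes 50.9% passed in GFP-positive and 31.5% in GFP-negative cells. GOT1 (chromosome 10, 99396870 to 99430624, hg38, minus strand), the cytosolic aspartate aminotransferase, was at 90.5, 119 and 98.8 CPM in control and at 222, 232 and 243 CPM in treated GFP-positive cells. In GFP-negative cells it went from 74.0, 78.1 and 71.5 to 394, 320 and 403 CPM. All treated libraries lay above all controls, with log2 fold changes of 1.24 ± 0.16 and 2.30 ± 0.16 (adjusted p = 6.2e-08 and 2.0e-05 from edgeR). The response was smaller in GFP-positive cells by 1.15 ± 0.20 on the log2 scale (adjusted p = 0.0087 from the edgeR interaction test, and 0.055 without treated GFP-positive replicate 1).

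GOT2, its mitochondrial counterpart, was at 360, 508 and 410 CPM in control and at 252, 285 and 281 CPM in treated GFP-positive cells (log2 fold change -0.57 ± 0.16, adjusted p = 0.0031 from edgeR). MDH1, the cytosolic malate dehydrogenase, was at 118, 108 and 111 CPM in control and at 166, 216 and 253 CPM in treated GFP-positive cells (0.98 ± 0.17, adjusted p = 8.2e-06 from edgeR). MDH2, the mitochondrial form, did not pass and was at 308, 402 and 297 CPM in control and 274, 348 and 324 CPM in treated cells. The ratio of GOT1 to GOT2 counts went from 0.242 to 0.851 in GFP-positive and from 0.199 to 1.24 in GFP-negative cells. In GFP-negative cells GOT2 and MDH1 had log2 values of -0.35 and 0.47 and did not pass.

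The second question was how far motor neurons and the other cells of the culture differed without the pesticide. Of 36 genes tested, 7 were higher and 12 were lower in control GFP-positive than in control GFP-negative cells, beside 17.1% and 23.1% of all 15404 genes, of which 40.2% passed. Only ENO2 was a DEG that was higher, and 7 were DEGs that were lower, beside 7.47% and 15.3% of all genes. The 7 were HK2, ENO1, PKM, SLC2A1, SLC16A1, EGLN3 and CA9, with log2 differences between -2.26 for SLC2A1 and -1.12 for PKM. CA9 met the count filter only through the GFP-negative libraries, where it was high. Its call is therefore no independent support for the difference. Progenitor and cycling markers were lower alongside, at 2938 to 3287 CPM against 6360 to 8149 CPM, and their part in the differences of the 7 genes was not tested.

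The enolase genes show the contrast between the fractions best. ENO2, the neuron-specific form, was at 843, 1120.3 and 855 CPM in control GFP-positive and at 334, 380 and 351 CPM in control GFP-negative cells. ENO1, the form of most other cells, was at 1018, 1408 and 977 CPM against 3163, 3064 and 3045 CPM. They differed by 1.30 ± 0.16 and by -1.55 ± 0.16 on the log2 scale (adjusted p = 1.2e-04 and 5.5e-05 from edgeR). In each library of GFP-positive cells the 2 genes had similar counts, with an ENO2 to ENO1 ratio of 0.832 in control and 0.777 in treated cells. In GFP-negative cells the ratio was 0.115 and 0.120, so the fractions stayed apart after treatment.

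Other genes higher in control motor neurons were PFKM and PFKFB4 (0.97 and 0.96), PDK1 (0.83), PFKFB2 (0.70), ALDOC (0.49) and HK1 (0.45), each a log2 difference that passed below the 2-fold limit. Several of these calls rested on single libraries. HK1 missed the limit without GFP-negative replicate 2 or 3 or GFP-positive replicate 3 (adjusted p = 0.063, 0.065 and 0.052). ALDOC missed it without GFP-negative replicate 1 or 2 or GFP-positive replicate 1 or 2 (0.056 to 0.11), and PDK1 without GFP-negative replicate 2 or GFP-positive replicate 1, 2 or 3 (0.058 to 0.13). PFKFB2 missed it when any single library but GFP-negative replicate 3 was left out (0.092 to 0.12). Without GFP-negative replicate 3, the library with blood genes, LDHB (-0.57, adjusted p = 0.030), HIF1A (0.78, adjusted p = 0.013) and EGLN1 (0.57, adjusted p = 0.038) passed as well. The CA9 difference was lost with DESeq2 (adjusted p = 0.10) and without the count filter (0.09 from edgeR). It was also lost without GFP-negative replicate 1 or 2 or GFP-positive replicate 1 or 3 (0.065 to 0.12). The EGLN3 difference was lost without GFP-positive replicate 1 or 2 (0.061 and 0.079). With a block for the assumed shared culture, 5 more genes passed. They were GOT1 (0.35, adjusted p = 0.027 from edgeR), SLC2A3 (0.42, adjusted p = 0.020), EGLN1 (0.42, adjusted p = 0.043), PFKL (-0.37, adjusted p = 0.016) and LDHB (-0.44, adjusted p = 0.015). The block lost no call.

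The other genes of these pathways were counted in lists of their own. These lists were chosen with earlier results of these data known. Of 24 other hypoxia response genes tested in GFP-positive cells, 20 rose and 3 fell, beside 26.5% and 24.4% of all genes. The median log2 fold change of the 24 was 1.30 beside 0.03 over all genes. KDM4B, NDUFA4L2 and HILPDA fell, by 0.80, 0.85 and 0.68. In GFP-negative cells 18 of 25 rose and 2 fell (CA12, -1.98, and HILPDA, -0.77), beside 15.3% and 16.2% of all genes. The median there was 1.44 beside -0.01. Without control GFP-negative replicate 3 these counts were 17 and 3, as ANKRD37 missed the limit (adjusted p = 0.071) and FAM162A passed as lower (0.026). The strongest were STC2, a secreted glycoprotein, BHLHE40, a transcriptional repressor, and VEGFA, the vascular growth factor. VEGFA was at 22.0, 18.9 and 18.1 CPM in control and at 369, 278 and 320 CPM in treated GFP-positive cells (4.10 ± 0.18, adjusted p = 3.2e-19 from edgeR). STC2 went from 10.2, 7.73 and 9.98 to 222, 164 and 213 CPM (4.49 ± 0.20, adjusted p = 2.4e-19 from edgeR) and BHLHE40 from 2.50, 2.14 and 2.75 to 29.2, 19.8 and 39.5 CPM. Several of the genes that rose, such as VEGFA and STC2, are also known targets of the unfolded protein response, and its 8 reference genes rose together in each fraction, from 1009.5 to 1063 CPM in sum to 6361 to 7394 CPM in GFP-positive cells. The part of either response was not tested.

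**Figure D4:**
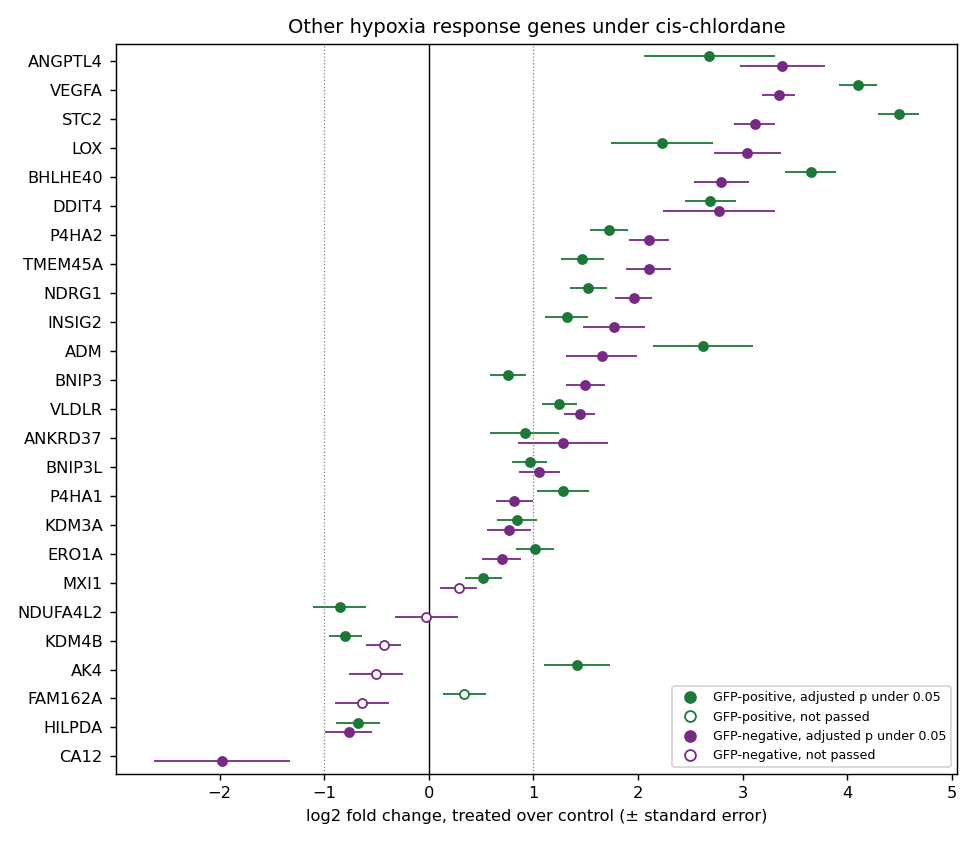
Log2 fold change of 25 other hypoxia response genes, treated over control, with standard errors, in GFP-positive (green) and GFP-negative (purple) cells, ordered by the GFP-negative value. Filled points passed an adjusted p of 0.05 and dotted lines mark a fold change of 2, and most genes lie to the right of 0 in both fractions.

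The interaction test passed for 2 of these 25 genes, beside 2.19% of all genes. They were STC2 (1.29, adjusted p = 0.015 from edgeR) and AK4, a mitochondrial adenylate kinase (1.83, adjusted p = 0.040). Both passed without control GFP-negative replicate 3 (adjusted p = 0.0047 and 0.026). With a block for the assumed shared culture VEGFA (0.67, adjusted p = 0.036) and BNIP3 (-0.82, adjusted p = 0.013) passed too. AK4 was at 2.68, 1.25 and 1.22 CPM in control and at 3.57, 5.47 and 3.97 CPM in treated GFP-positive cells, and at 6.14, 6.49 and 5.39 CPM and 4.88, 4.33 and 3.68 CPM in GFP-negative cells. A HIF core was present in 25 of 29 upstream windows of this list, or 86.2%, beside 43.2% of all windows. These genes were listed for their response to hypoxia, so this share is no evidence about the treatment.

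Around pyruvate, 7 of 16 other genes rose and 9 did not pass in GFP-positive cells, where 26.5% of all genes rose. In GFP-negative cells 7 of 17 rose and 10 did not pass, beside 15.3% of all genes that rose. Without control GFP-negative replicate 3, PDPR missed the limit (adjusted p = 0.062) and 6 rose. PCK2, the mitochondrial enzyme that makes phosphoenolpyruvate, went from 7.57, 9.12 and 6.43 to 89.3, 99.3 and 63.9 CPM in GFP-positive cells and from 19.1, 16.2 and 12.3 to 245, 228 and 210 CPM in GFP-negative cells. These are log2 fold changes of 3.51 ± 0.21 and 3.82 ± 0.20 (adjusted p = 3.8e-16 and 8.2e-06 from edgeR). MPC1, a subunit of the mitochondrial pyruvate carrier, and GPT2, a mitochondrial alanine aminotransferase, rose in both fractions, by 1.77 and 1.52 in GFP-positive cells.

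The counts of the remaining lists in GFP-positive cells are to be read beside the 26.5% of all genes that rose and the 24.4% that fell. Among 15 other genes of glycolysis and hexose metabolism 4 rose (HKDC1, PGM1, TIGAR and GCKR) and 3 fell (HK3, PGAM4 and PGM2L1). HKDC1, a further hexokinase, rose from 0.224, 0.550 and 0.224 to 3.09, 2.49 and 2.12 CPM (2.97 ± 0.41, adjusted p = 2.4e-07 from edgeR). HKDC1 met the count filter there only through the treated libraries, where it was high. Its p-value is therefore no independent support for the rise. PGM1, which links glycogen to glycolysis, rose by 1.25. Of 9 other carriers SLC2A10 (3.31) and SLC16A7 (0.86) rose, and BSG (-0.87) and SLC2A6 fell. SLC2A6 is a glucose transporter of lysosomes and went from 99.6, 109 and 85.4 to 16.3, 18.5 and 12.4 CPM (-2.58 ± 0.19, adjusted p = 1.3e-13 from edgeR). Of 8 other shuttle genes GPD1L rose (0.46), and SLC25A10, the mitochondrial dicarboxylate carrier (-1.63), GPD1 (-1.16), SLC1A3 (-0.90) and SLC25A11 (-0.77) fell. Of 11 other HIF regulators SIAH1 and SIAH2, ubiquitin ligases, rose (0.42 and 0.80), and ARNT2, HIF1AN, ELOB and RBX1 fell by 0.85, 0.61, 0.86 and 0.51.

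In the tricarboxylic acid cycle 3 of 18 genes rose (IDH3A, SUCLA2 and SDHD, by 0.60, 0.60 and 0.79) and 3 fell (IDH2, IDH3B and OGDH, by 0.91, 0.59 and 0.42) in GFP-positive cells, together 6 of 18 where 50.9% of all genes passed. Of 5 genes of the glucose-responsive MondoA system, TXNIP, an inhibitor of glucose uptake, fell in GFP-positive cells (-1.32, adjusted p = 5.1e-06 from edgeR). In GFP-negative cells, where 31.5% of all genes passed, 0 of the 5 passed by edgeR and 0 had an unadjusted p under 0.05.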

How the data were processed

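RNA was measured in 12 libraries, 3 in each of 4 groups taken from the sample labels. The authors joined the lanes of each library and used HISAT2 in its single-end, reverse-strand mode to map the reads against hg38. featureCounts is named in the submitters' processing notes, while its strand setting and version are not given in the sources used here. The deposited values are raw counts per gene, and 1545 of the 28278 symbols begin with LOC, so the annotation used for counting is uncertain. Libraries of 1 group differed by far more than sampling noise. The 37 genes and the other lists were chosen with earlier results of these data known.

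Counts were scaled by TMM, filtered with filterByExpr (minimum count 10, total 15) and tested with edgeR 4.0.16 in R 4.3.3, by the quasi-likelihood F-test adjusted over every gene tested by the method of Benjamini and Hochberg. Each comparison of 2 groups used its 6 libraries, and the interaction used 12. The fits were tested on simulated data. All 37 genes may be named. From each other list the text names up to 3 DEGs with the largest change in GFP-positive cells and a mean of at least 1 CPM. Other genes of the lists, such as AK4, were named after their values were seen, to give the members of small counts. CPM per kilobase used the canonical GENCODE 44 transcript, matched for 25506 symbols. The ratios within libraries had 0.5 added to each count.

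Same-numbered libraries of both fractions were taken as sorts of the same culture. Over 13368 genes the correlations of what remained after removing group means were 0.45, 0.16 and 0.48 for the control pairs and 0.20, 0.28 and 0.55 for the treated pairs. Alternatives were DESeq2 1.42.0, a replicate block, scaling by RLE or by library size alone, omitting the filter or demanding 10 counts in every library, removal of the GC trend by loess (span 0.5), a fit of all 12 libraries and leaving out each library. Refits of the other lists and of the EPAS1 ratio were chosen after seeing the data. Figures were drawn with matplotlib 3.10.9. With 3 libraries a group, p-values from edgeR set a difference between groups against the spread between these libraries. The estimate of that spread also draws on the other genes.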

Additional observations from a re-analysis of the deposited data

Results flagged for a closer look

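The response to cis-chlordane differed between GFP-positive and GFP-negative cells for 5 of the 37 genes by the edgeR interaction test, in which 2.19% of all genes passed. With a replicate block for the assumed shared culture 7 passed, since SLC2A1 (0.64, adjusted p = 0.036) and PGK1 (-0.67, adjusted p = 0.029) were added. HK2 rose in both fractions, and its log2 response was larger in GFP-positive cells by 2.25. For the other 4 the log2 response in GFP-positive cells lay below that in GFP-negative cells, with differences of -1.13 for PFKFB4, -1.0003 for SLC2A3, -1.29 for SLC16A3 and -1.15 for GOT1. HK2 and SLC16A3 kept their calls whichever of the 12 libraries was omitted. SLC16A3 kept its call only narrowly without treated GFP-positive replicate 1, with an adjusted p from edgeR that rounds to 0.05. The call of GOT1 was lost without treated GFP-positive replicate 1, that of PFKFB4 was lost for 4 and that of SLC2A3 for 5 of the libraries when left out singly. Groups of 3 libraries were not tested for outlying libraries.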

How the results depend on the processing

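Of 2370 refits of single genes under the alternatives, 125 changed sign where neither fit was called, and no called value changed sign. In the control comparison of the fractions, the genes higher in GFP-positive cells numbered 7, and 11 with the GC trend removed and 13 with the replicate block and GC removal, while the higher DEGs numbered 1, and 3 under each of GC removal, the replicate block with GC removal, and the fit of all 12 libraries. For the interaction, 1 gene passed with a larger response in GFP-positive cells, and 2 passed with DESeq2, with library size alone, with the replicate block, with GC removal and with both of the last, and the 4 with a smaller response became 2 with library size alone, which lost PFKFB4 (adjusted p = 0.059 from edgeR) and SLC2A3 (adjusted p = 0.066), and 5 with the replicate block, alone or with GC removal, where PGK1 passed. Library size alone also moved the median log2 fold change over all genes in GFP-positive cells from 0.03 to 0.14. With each library left out in turn, the lower DEGs in GFP-negative cells numbered 1 to 3 (1 without control GFP-negative replicate 1), the genes higher in control GFP-positive cells 3 to 8 (3 without GFP-negative replicate 2, 4 without GFP-positive replicate 1, 2 or 3), the higher DEGs there 1 to 3, and the smaller interaction responses 1 to 4 (1 without treated GFP-positive replicate 1, 2 without treated GFP-positive replicate 3). The log2 difference of PFKFB3/PFKFB4 in GFP-negative cells ran from -0.13 (without treated replicate 2) to 0.34, and that of EGLN3/EGLN1 in GFP-positive cells ran from -0.70 to 0.054 (without control replicate 3). Control and treated libraries share only a replicate number, with correlations of their deviations between -0.084 and 0.25. With that number as a replicate block, 11 genes fell in GFP-positive cells in place of 10 and the other counts for the treatment were equal. The cause of these changes was not tested.

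The depth limits EPAS1, EGLN3 and CA9, which had 2 to 134 counts a library. GFP and the sort were read in 1 cell line, and RNA levels do not measure enzyme activity or flux.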
